A study of Mus musculus with 16 samples.

Results

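The brush border genes studied here were 10 named components of the microvillus: Vil1, Espn, Eps8, Myo1a, Myo7b, Cdhr2, Cdhr5, Ush1c, Pls1 and Ezr. They were chosen by name, out of 54123 genes with a transcript in the expression tables, and their reads were summed over transcripts in each of 16 RNA-seq libraries from mouse colon organoids. The organoids came from the proximal or the distal end of the colon of 2 female mice aged 8 weeks, and every group held 1 library of each replicate number, 1 and 2. The labels number biological replicates and the methods name 2 mice, so that a number was taken to mark 1 mouse in all groups, which no source states. All groups carried a heterozygous Cre-inducible BrafV600E allele and a heterozygous tdTomato reporter, and no Cre was described for these libraries. Lentiviral Cas9 was delivered with a control guide (Scramble-sgRNA) or with a guide against Cdx2 (Cdx2-sgRNA), followed by blasticidin selection. In month 4 of culture the organoids were kept for 2 days in WENR-plus medium, which holds Wnt3a, EGF, Noggin and R-spondin, and then for 3 days either in the same medium or in WENR-minus medium, which lacks these 4 factors. Thus there were 8 groups (2 regions, 2 guides and 2 media) of 2 libraries. Organoids with Cdx2-sgRNA were grown from single cells that carried frameshift mutations in Cdx2, and no such step was described for Scramble-sgRNA, so that the edit, the clone and the passage through a single cell cannot be told apart.

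Microvilli are finger-like protrusions of the apical membrane of absorptive cells, each held up by a bundle of actin filaments. Villin (Vil1), plastin 1 (Pls1) and espin (Espn) bundle the filaments, and Eps8 caps and bundles them at the tip. Myosin 1a (Myo1a) and ezrin (Ezr) tie the bundle to the membrane. The protocadherins Cdhr2 and Cdhr5 join the tips of neighbouring microvilli, and are anchored inside the tip by the scaffold harmonin (Ush1c) and the motor myosin 7b (Myo7b). Cdx2 is a transcription factor of the intestinal epithelium, and Hnf4a is a second one that is active in enterocytes and colonocytes.

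Each library held between 12465194 and 18922143 estimated reads (median 16836530). Mitochondrial ribosomal RNA took 15.4 to 28.0% of these. The summed normalised count (CPM, TMM-scaled) of 5 epithelial markers was 3783 to 16433 in all libraries, whereas 5 fibroblast markers summed to 0 to 1.12, 5 immune markers to 0.116 to 7.91 and 3 endothelial markers to 0 to 2.00. The defining fibroblast gene Dcn was at 0 reads in 16 of 16 libraries. All 10 brush border genes had reads in every library and passed the filter on low counts, as did 15289 genes in all. A gene was called where the adjusted p was under 0.05 and the log2 fold change was beyond 1 in either direction.

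The guide against Cdx2 matches the coding part of exon 1 of 3 of Cdx2, at chr5:147306485-147306504 of GRCm38 on the minus strand. It is shown with the adjoining PAM in capitals, because it defines the edited groups.
Cdx2 guide site: agcggcgaaacctgtgcgagTGG
The Cdx2 message checks the labels only in part, since a frameshift need not remove it. In proximal organoids Cdx2 was at 142 and 127 CPM (replicate 1 and replicate 2) with Scramble-sgRNA and at 29.9 and 33.3 with Cdx2-sgRNA in WENR-plus, and at 203 and 151 against 73.9 and 71.0 in WENR-minus. Both differences were called (log2 fold change -2.09 ± 0.21 SE, adjusted p = 5.48e-05, and -1.29 ± 0.20, adjusted p = 0.000679). In distal organoids the message was at 76.8 and 67.9 against 62.3 and 50.2 in WENR-plus, and at 112 and 110.0 against 126 and 86.1 in WENR-minus, and neither difference was called (adjusted p = 0.857 and 0.876).

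In Scramble-sgRNA organoids without the WENR factors, the brush border genes differed widely in level per transcript length (TPM, in which the values of a library share 1 total). In the proximal group the mean TPM was 516 ± 9.78 (SD, n = 2) for Pls1, 494 ± 1.93 for Ezr and 399 ± 5.30 for Cdhr5. It was 280 ± 11.2 for Vil1, 252 ± 0.725 for Myo1a, 241 ± 60.1 for Eps8 and 218 ± 49.4 for Cdhr2. The lowest were Ush1c (101 ± 9.79), Myo7b (87.4 ± 8.59) and Espn (38.7 ± 22.3). In this order Myo1a and Eps8, and Eps8 and Cdhr2, differed by less than the SD of Eps8, and the other neighbours by more than the SD of either gene. The order holds for TPM summed over the annotated transcripts of a gene. In the same libraries Pls1-202 had 368 and 374 TPM (replicate 1 and replicate 2) and Pls1-201 had 125 and 128. Ezr-202, annotated as a processed transcript, had 147 and 114 TPM. Leaving mitochondrial ribosomal RNA out of the TPM multiplied the group means by a factor of 1.18 to 1.33.

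The genes lie on 9 chromosomes of GRCm38. Vil1 is at chr1:74409376-74435559 on the plus strand, where it overlaps Usp37 on the other strand (321 to 1103 reads per library). Myo1a is at chr10:127705170-127720940 and Cdhr2 at chr13:54701461-54736662, both on the plus strand. On the minus strand are Espn (chr4:152120331-152152371), Eps8 (chr6:137477245-137654876), Pls1 (chr9:95752642-95845311), Ezr (chr17:6738041-6782784) and Myo7b (chr18:31959234-32036961). Ush1c (chr7:46195350-46238503) and Cdhr5 (chr7:141269083-141276786) share a chromosome and lie far apart, also on the minus strand.

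**Figure D1:**
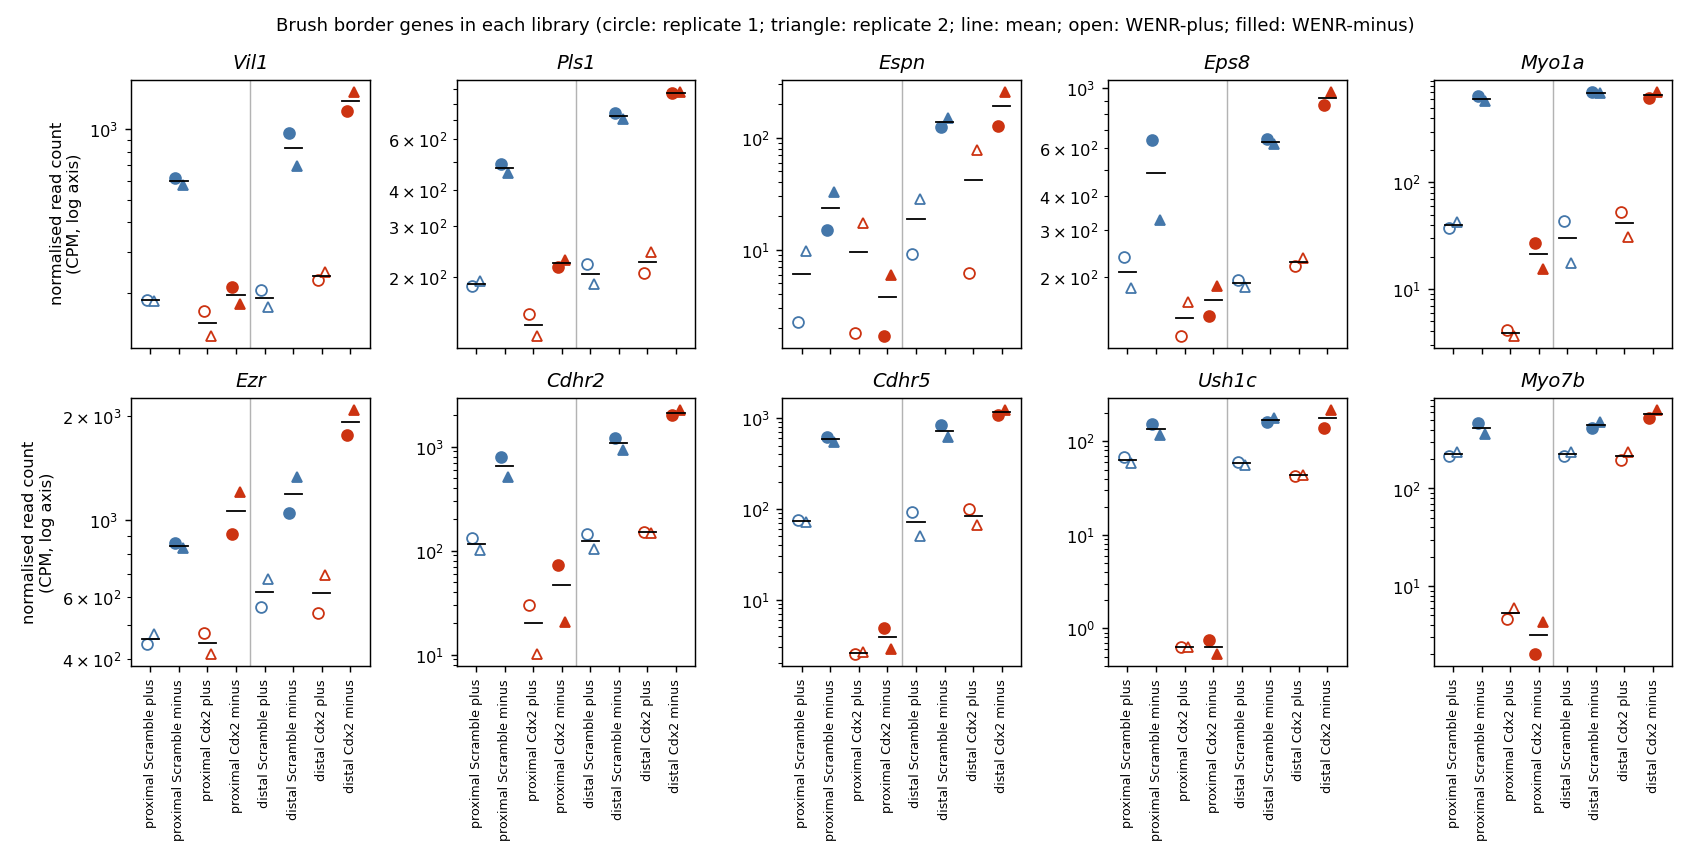
Normalised read count (CPM, log axis) of each brush border gene in the 16 libraries, by region, guide and medium; circles are replicate 1, triangles replicate 2, lines group means, open symbols WENR-plus and filled symbols WENR-minus. In the proximal Cdx2-sgRNA libraries Ush1c lies between 0.529 and 0.742 CPM and in all other libraries between 42.8 and 214.

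The question of the medium comparison was how the organoids respond when the WENR factors are withdrawn. In Scramble-sgRNA organoids of both regions, 7 of the 10 genes were called higher on withdrawal and none lower: Vil1, Pls1, Eps8, Myo1a, Cdhr2, Cdhr5 and Ush1c. Of all genes tested, 8.73% were called higher in proximal and 12.2% in distal organoids. The median log2 fold change of the brush border genes was 1.51 in proximal and 1.97 in distal organoids, against -0.06 and -0.11 over all genes.

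Myo1a, the membrane-linking motor, rose most. It was at 37.4 and 42.2 CPM in proximal Scramble-sgRNA organoids in WENR-plus and at 646 and 576 in WENR-minus, and at 43.5 and 17.4 against 706 and 687 in distal ones. The libraries of both media lay far apart in each region, and Myo1a rose by a log2 of 3.94 ± 0.42 in the proximal (adjusted p = 0.000212) and 4.52 ± 0.43 in the distal cultures (adjusted p = 4.30e-05). The tip protocadherins followed. Cdhr5 went from 75.8 and 72.2 to 623 and 554 CPM in proximal organoids (2.99 ± 0.32, adjusted p = 0.000212) and from 92.3 and 50.2 to 835 and 627 in distal ones (3.36 ± 0.32, adjusted p = 4.46e-05). Cdhr2 went from 131 and 101 to 787 and 506 CPM in proximal organoids (2.47 ± 0.56, adjusted p = 0.00768) and from 145 and 105 to 1223 and 932 in distal ones (3.11 ± 0.58, adjusted p = 0.00146).

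The bundlers Vil1 and Pls1 rose too. Vil1 was at 188 and 185 CPM in proximal WENR-plus and at 619 and 576 in WENR-minus (1.68 ± 0.19, adjusted p = 0.000286), and the distal values were 207 and 174 against 963 and 692 (2.12 ± 0.20, adjusted p = 3.73e-05). Pls1 rose by 1.33 ± 0.14 in proximal and by 1.82 ± 0.14 in distal organoids, and the tip capper Eps8 by 1.21 ± 0.28 and 1.73 ± 0.28. The scaffold Ush1c rose by 1.104 ± 0.20 in proximal organoids, from 67.8 and 58.1 to 153 and 118 CPM, and by 1.55 ± 0.21 in distal ones. In proximal organoids the call of Eps8 was lost without replicate 1 in WENR-minus (0.66, adjusted p = 0.0885) or replicate 2 in WENR-plus (1.07, adjusted p = 0.0748), and in a fit of only the 4 libraries compared (1.20, adjusted p = 0.0525). Lost too were that of Ush1c without replicate 1 in WENR-minus (0.92, adjusted p = 0.0262) and that of Cdhr2 without replicate 2 in WENR-plus (2.34, adjusted p = 0.0617).

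Myo7b and Ezr passed the adjusted p but not the fold change limit. Myo7b had a log2 fold change of 0.88 ± 0.26 in proximal and 0.97 ± 0.26 in distal Scramble-sgRNA organoids (adjusted p = 0.0234 and 0.0102), and Ezr of 0.89 ± 0.20 and 0.94 ± 0.20 (adjusted p = 0.00671 and 0.00294). Neither gene had overlapping libraries between media, and the share of all genes without such overlap was not counted. Espn was not called, with 1.99 ± 1.20 in proximal and 2.87 ± 1.19 in distal organoids. Of all genes, 29.4% in proximal and 40.4% in distal organoids had an adjusted p under 0.05 whatever the fold change.

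Markers of cell types moved with the medium. In proximal Scramble-sgRNA organoids the summed CPM of 6 colonocyte markers was 183 to 249 in WENR-plus and 6669 to 9957 in WENR-minus, and that of 6 goblet markers 606 to 1013 against 5886 to 6960. The 4 cycling markers summed to 1080 to 1251 against 180 to 375, and 4 stem cell markers to 405 to 422 against 134 to 189. In distal Scramble-sgRNA organoids the colonocyte sum was 252 to 412 against 7042 to 11109, the goblet sum 616 to 1215 against 5606 to 10693, the cycling sum 1117 to 1302 against 225 to 382 and the stem cell sum 360 to 413 against 139 to 164. The 5 epithelial markers also differed, at 4586 to 4821 against 13473 to 13845 in proximal and 4002 to 4576 against 11777 to 13177 in distal organoids. In bulk RNA, fewer cells of a type and less message per cell cannot be told apart, and the part of these markers' cells in the rise of the brush border genes was not tested.

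In distal Cdx2-sgRNA organoids 9 of the 10 genes were called higher on withdrawal, all but Espn, where 14.9% of all genes were. The estimate of Espn was above 0 too. The median was 2.11, against -0.10 over all genes. Cdhr2 reached 2005 and 2228 CPM in WENR-minus, from 153 and 148 in WENR-plus (3.82 ± 0.60, adjusted p = 0.000322), and Cdhr5 reached 1100 and 1221 from 98.8 and 66.3 (3.81 ± 0.33, adjusted p = 1.00e-05). Ezr, at 541 and 695 CPM in WENR-plus and 1761 and 2075 in WENR-minus, rose by 1.63 ± 0.20 (adjusted p = 6.74e-05), and Myo7b by 1.43 ± 0.26 (adjusted p = 0.000851). The marker sums moved as well, from 427 to 624 CPM in WENR-plus to 14895 to 15979 in WENR-minus for colonocytes, from 642 to 3315 to 5770 to 15315 for goblet cells, from 923 to 1293 to 92.4 to 173 for cycling cells and from 310 to 489 to 92.1 to 97.5 for stem cells. The epithelial sum went from 4775 to 4777 to 16153 to 16433. Their part in the rise was not tested.

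In proximal Cdx2-sgRNA organoids Myo1a and Ezr were called among the 10 genes, both higher, where 3.42% of all genes were called higher. Myo1a was at 4.18 and 3.65 CPM in WENR-plus and at 27.2 and 15.4 in WENR-minus (2.44 ± 0.42, adjusted p = 0.00542). The WENR-minus values thus lay below those of proximal Scramble-sgRNA organoids in WENR-plus (37.4 and 42.2). Ezr went from 474 and 411 to 915 and 1211 CPM (1.26 ± 0.20, adjusted p = 0.00377). The others had log2 fold changes between -1.29 and 1.22, and Pls1 alone of these passed the adjusted p (0.71 ± 0.14, adjusted p = 0.00913), as did 13.5% of all genes. With a block for each culture, which pairs both media by replicate number, Cdhr2 was called too (1.17, adjusted p = 0.000728, against 1.22 and 0.172 without the block; 30.3 and 10.1 CPM in WENR-plus, 73.6 and 20.7 in WENR-minus). With the fit restricted to the 4 libraries compared, neither Myo1a (adjusted p = 0.122) nor Ezr (adjusted p = 0.128) was called, and without replicate 2 in WENR-plus the call of Myo1a was lost (adjusted p = 0.0563). The colonocyte markers summed to 136 to 240 CPM in WENR-plus and 517 to 1591 in WENR-minus here, the cycling markers to 518 to 623 against 546 to 654, the stem cell markers to 488 to 546 against 122 to 188 and the epithelial markers to 3783 to 5148 against 11819 to 12532. Of the 6 colonocyte markers 1 was called higher, and 4 were below 0 (median log2 fold change -0.31). Of the stem cell markers 3 of 4 were called lower (median log2 fold change -3.49). The part of these cell types in the values of the brush border genes was not tested.

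Whether the response to the medium differed between guides was tested directly. In proximal organoids the difference was called for Cdhr5 (-2.42 ± 0.47, adjusted p = 0.0243), Myo7b (-1.60 ± 0.39, adjusted p = 0.0441) and Vil1 (-1.29 ± 0.27, adjusted p = 0.0302), all lower with Cdx2-sgRNA, where 1.93% of all genes were called in that direction. The response of Myo7b was 0.88 with Scramble-sgRNA and -0.71 with Cdx2-sgRNA, and the latter was not called (adjusted p = 0.136). Leaving out 1 of the 8 libraries gave 0 to 4 called genes: 0 without either Scramble-sgRNA WENR-plus library or without replicate 1 of Scramble-sgRNA WENR-minus, and 1 without either Cdx2-sgRNA WENR-plus library or without replicate 2 of Cdx2-sgRNA WENR-minus. In distal organoids none of the 10 genes was called by edgeR or by DESeq2, and 0.00% of all genes were called by edgeR. An unadjusted p under 0.05 in edgeR was found for 1 of the 10, and for 1457 of all 15289 genes tested.

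**Figure D2:**
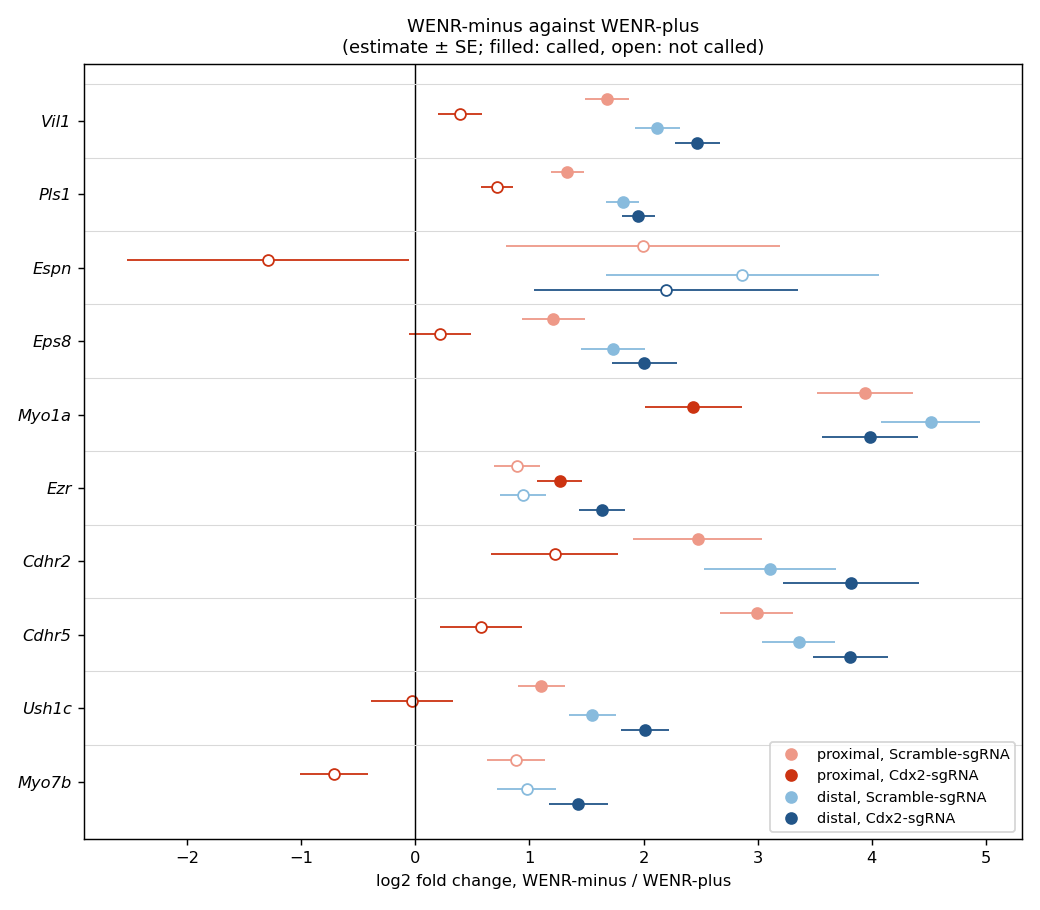
Log2 fold change of each brush border gene, WENR-minus against WENR-plus, in the 4 combinations of region and guide; points are estimates, bars 1 SE, and filled points are called. In this fit, without a replicate block, the proximal Cdx2-sgRNA points have Myo1a (2.44) and Ezr (1.26) called, whereas 9 of 10 are called in distal Cdx2-sgRNA organoids.

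The comparison of guides asked what the Cdx2 edit does in each region. In proximal organoids the 4 brush border genes that act in tip adhesion (Cdhr2, Cdhr5, Ush1c and Myo7b) and the membrane motor Myo1a fell with Cdx2-sgRNA in both media, the bundlers Vil1 and Pls1 and the tip capper Eps8 were called lower in WENR-minus and not in WENR-plus, and neither Ezr nor Espn was called in either medium. In total 8 of the 10 genes were called lower in WENR-minus, where 12.1% of all genes were, and 5 of 10 in WENR-plus, where 8.94% were. None was called higher. The median log2 fold change in WENR-minus was -3.19, against 0.00 over all genes, and that in WENR-plus was -1.55, against -0.05.

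The scaffold Ush1c had the largest log2 fold change of the 10 genes in both media. It was at 153 and 118 CPM with Scramble-sgRNA and at 0.742 and 0.529 with Cdx2-sgRNA in WENR-minus, a 215-fold difference (log2 fold change -7.75 ± 0.30, adjusted p = 4.50e-08). In WENR-plus it was at 67.8 and 58.1 against 0.638 and 0.635, a 97.8-fold difference (-6.61 ± 0.29, adjusted p = 1.62e-07). Each of the 4 proximal Cdx2-sgRNA libraries held 10 to 12 reads of Ush1c, while the other 12 libraries held 747 to 2560, so that the gene was still above a floor of 3 reads in each library.

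Cdhr5 and Myo7b came next in WENR-minus. Cdhr5 was at 623 and 554 against 4.90 and 2.86 CPM in WENR-minus (-7.26 ± 0.40, adjusted p = 5.09e-07) and at 75.8 and 72.2 against 2.49 and 2.64 in WENR-plus (-4.84 ± 0.36, adjusted p = 7.80e-06). Myo7b was at 470.0 and 363 against 2.00 and 4.34 CPM in WENR-minus (-7.00 ± 0.34, adjusted p = 1.71e-07) and at 215 and 236 against 4.64 and 5.97 in WENR-plus (-5.41 ± 0.31, adjusted p = 1.53e-06). For both genes the proximal Cdx2-sgRNA values lay below those of every other library.

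Cdhr2, the protocadherin that pairs with Cdhr5, had a smaller fold change. It was at 787 and 506 against 73.6 and 20.7 CPM in WENR-minus (-3.78 ± 0.60, adjusted p = 0.000768) and at 131 and 101 against 30.3 and 10.1 in WENR-plus (-2.53 ± 0.57, adjusted p = 0.00892). Replicate 1 was above replicate 2 in both edited groups, and without the WENR-plus library of replicate 2 the call in that medium was lost (-1.94, adjusted p = 0.0603). Myo1a was at 646 and 576 against 27.2 and 15.4 CPM in WENR-minus (-4.85 ± 0.44, adjusted p = 1.75e-05) and at 37.4 and 42.2 against 4.18 and 3.65 in WENR-plus (-3.35 ± 0.43, adjusted p = 0.000334).

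The bundlers Vil1 and Pls1 and the tip capper Eps8 had the smallest called differences. In WENR-minus Vil1 was at 619 and 576 against 212 and 181 CPM (-1.61 ± 0.19, adjusted p = 0.000128), Pls1 at 494 and 459 against 217 and 229 (-1.10 ± 0.14, adjusted p = 0.000201) and Eps8 at 645 and 327 against 144 and 185 (-1.56 ± 0.28, adjusted p = 0.00166). Without replicate 1 in Scramble-sgRNA WENR-minus the difference in Eps8 was -0.96, short of the fold change limit. In WENR-plus the log2 fold changes were -0.32 ± 0.19 for Vil1, -0.47 ± 0.14 for Pls1 (adjusted p = 0.0300, a threshold that 24.8% of all genes passed) and -0.57 ± 0.27 for Eps8. Ezr, which links actin to the membrane in many cell types, was at 859 and 831 against 915 and 1211 CPM in WENR-minus (0.33 ± 0.20, adjusted p = 0.225) and at 441 and 471 against 474 and 411 in WENR-plus (-0.04 ± 0.20, adjusted p = 0.903).

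Markers of cell types moved in these groups too. The summed CPM of the colonocyte markers was 6669 to 9957 with Scramble-sgRNA and 517 to 1591 with Cdx2-sgRNA in proximal WENR-minus organoids, and 183 to 249 against 136 to 240 in WENR-plus. Behind the near sums in WENR-plus, Car1 (-3.16 ± 0.39) and Fabp2 (-3.21 ± 0.84) fell and Krt20 (2.78 ± 0.57) rose. The sum of 5 enteroendocrine markers was 116 to 191 against 0.846 to 1.86 in WENR-minus and 50.3 to 71.1 against 1.16 to 1.22 in WENR-plus, with 5 and 3 of the 5 called lower. That of the goblet markers was 5886 to 6960 against 51.4 to 54.6 in WENR-minus, and 606 to 1013 against 33.6 to 39.1 in WENR-plus. The cycling markers were higher with Cdx2-sgRNA in WENR-minus (180 to 375 against 546 to 654) and lower in WENR-plus (1080 to 1251 against 518 to 623). The stem cell markers summed to 134 to 189 against 122 to 188 in WENR-minus and to 405 to 422 against 488 to 546 in WENR-plus. The epithelial markers summed to 13473 to 13845 against 11819 to 12532 and to 4586 to 4821 against 3783 to 5148. The part of cell composition in the fall of the brush border genes was not tested.

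In distal organoids no brush border gene was called between guides, in either medium. In WENR-minus the log2 fold changes ran from -0.08 to 0.97 with a median of 0.51, against 0.00 over all genes, and 9 of 10 were above 0. Vil1, at 963 and 692 CPM with Scramble-sgRNA and 1188 and 1436 with Cdx2-sgRNA, was the only one of the 10 past the adjusted p (0.66 ± 0.19, adjusted p = 0.0490), which 9.76% of all genes passed. Cdhr2 was at 1223 and 932 against 2005 and 2228 CPM (0.97 ± 0.54, adjusted p = 0.280) and Ezr at 1050 and 1335 against 1761 and 2075 (0.69 ± 0.20, adjusted p = 0.0504). In this medium 3 of the 10 genes had an unadjusted p under 0.05 in edgeR, as had 3984 of all 15289 genes tested. DESeq2 called none of the 10. In WENR-plus the log2 fold changes ran from -0.42 to 1.15 (median 0.24). None of the 10 had an unadjusted p under 0.05 in edgeR, against 973 of all genes tested, and DESeq2 called none of the 10. Over all genes 2.24% were called higher and 3.00% lower in WENR-minus. For WENR-plus these shares were 0.137% and 0.124%. The marker sums in WENR-minus were 7042 to 11109 CPM with Scramble-sgRNA and 14895 to 15979 with Cdx2-sgRNA for colonocytes, 225 to 382 against 92.4 to 173 for cycling cells and 139 to 164 against 92.1 to 97.5 for stem cells. In WENR-plus they were 252 to 412 against 427 to 624, 1117 to 1302 against 923 to 1293 and 360 to 413 against 310 to 489. Of the 6 colonocyte markers 1 was called higher and 1 lower in WENR-minus (median log2 fold change 0.57). None of the 6 was called in WENR-plus, where 4 were below 0 (median -0.33). The goblet and epithelial sums in WENR-minus were 5606 to 10693 against 5770 to 15315 and 11777 to 13177 against 16153 to 16433. What these markers' cells contribute to the guide comparison was not tested.

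The difference between regions in the guide effect was tested itself. In WENR-minus it was called for the 8 genes that fell in proximal organoids, where 9.08% of all genes were called lower. It ranged from -1.37 ± 0.20 for Pls1 (adjusted p = 0.00109) to -7.93 ± 0.48 for Cdhr5 (adjusted p = 1.76e-06). In WENR-plus it was called for Ush1c (-6.20 ± 0.35), Myo7b (-5.33 ± 0.39), Cdhr5 (-5.06 ± 0.46) and Myo1a (-3.79 ± 0.57), where 3.76% of all genes were called lower. Cdhr2 (-2.79 ± 0.78, adjusted p = 0.0597) did not pass there, and with the replicate number as a block it was called (-2.95, adjusted p = 0.0147). For Ezr the 2 media gave differences of -0.36 ± 0.28 (WENR-minus) and -0.04 ± 0.28 (WENR-plus).

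**Figure D3:**
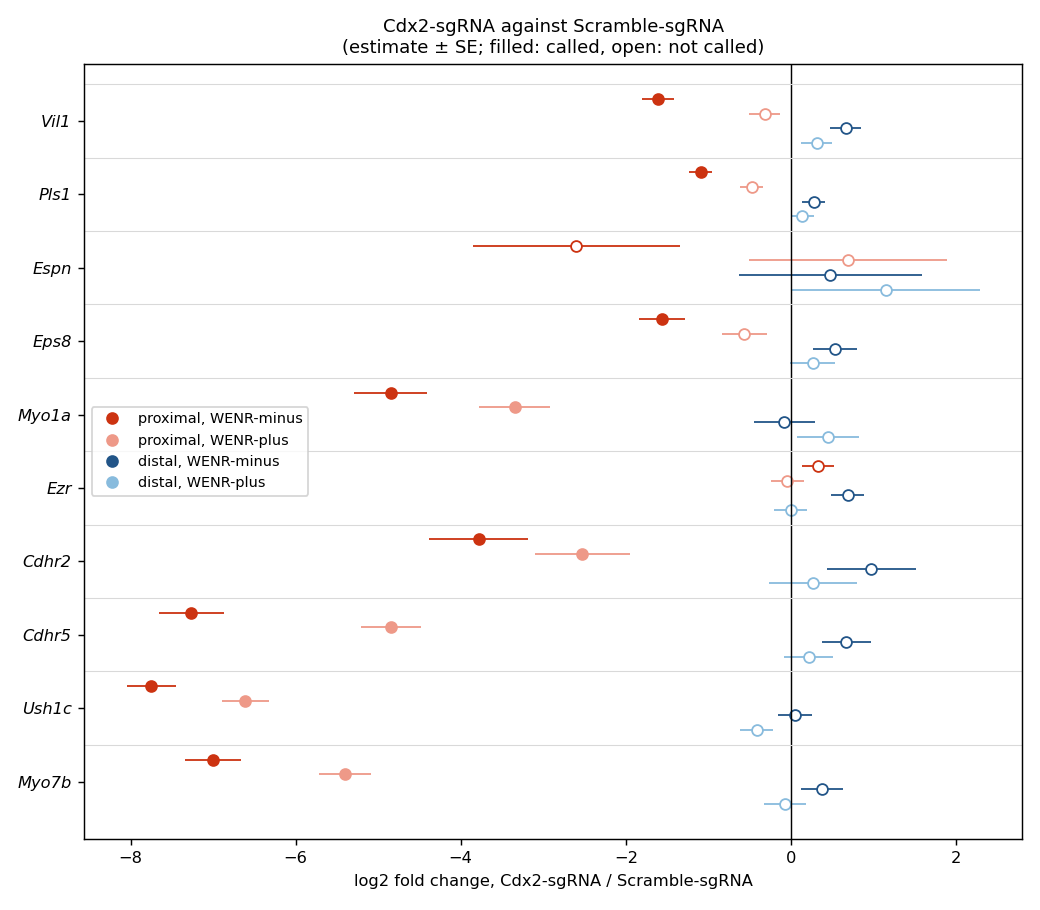
Log2 fold change of each brush border gene, Cdx2-sgRNA against Scramble-sgRNA, in each region and medium; points are estimates, bars 1 SE, and filled points are called. The proximal estimates of Cdhr5, Ush1c and Myo7b lie between -7.75 and -4.84, and the distal estimates of all genes between -0.42 and 1.15.

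The regions were also compared within each guide. In WENR-minus Scramble-sgRNA organoids all 10 log2 fold changes of proximal against distal were below 0, from -2.53 to -0.10 with a median of -0.43 against 0.07 over all genes, and none was called (2.88% of all genes were called higher and 3.20% lower). Pls1 passed the adjusted p, at 494 and 459 CPM in proximal and 739 and 706 in distal organoids (-0.60 ± 0.14, adjusted p = 0.0209), as did 9.95% of all genes. Espn was at 14.996 and 32.5 CPM in proximal and 124 and 151 in distal organoids (-2.53 ± 1.18, adjusted p = 0.200), and with the replicate number as a block it was called (-2.79, adjusted p = 0.0234). In WENR-plus the median was -0.02 and no gene was called, where 0.680% of all genes were called higher and 1.07% lower. By edgeR 3 and 1 of the 10 genes had an unadjusted p under 0.05 in these 2 media, as had 3984 and 2165 of all 15289 genes tested. DESeq2 called none of the 10. With Cdx2-sgRNA 9 of the 10 genes, all but Ezr, were called lower in proximal than in distal organoids in WENR-minus (16.5% of all genes were), and Cdhr2, Cdhr5, Ush1c, Myo7b and Myo1a were in WENR-plus (9.57%). Ezr was at 915 and 1211 CPM in proximal and 1761 and 2075 in distal Cdx2-sgRNA organoids in WENR-minus (-0.85 ± 0.20, adjusted p = 0.00435, a threshold that 49.0% of all genes passed). In WENR-plus Pls1 (-0.73 ± 0.14, adjusted p = 0.00330) and Vil1 (-0.66 ± 0.19, adjusted p = 0.0237) passed the adjusted p but not the fold change limit, and 29.3% of all genes had such a p. With Scramble-sgRNA in WENR-minus, the marker sums in proximal against distal organoids were 6669 to 9957 against 7042 to 11109 CPM for colonocytes, although 3 of the 6 genes were called lower (median log2 fold change -2.73), and 116 to 191 against 351 to 467 for enteroendocrine cells, with 2 of 5 called lower. With Cdx2-sgRNA in WENR-minus the sums were 517 to 1591 against 14895 to 15979 for colonocytes, 51.4 to 54.6 against 5770 to 15315 for goblet cells, 0.846 to 1.86 against 382 to 393 for enteroendocrine cells and 546 to 654 against 92.4 to 173 for cycling cells. With Cdx2-sgRNA in WENR-plus the same 4 sums were 136 to 240 against 427 to 624, 33.6 to 39.1 against 642 to 3315, 1.16 to 1.22 against 121 to 138 and 518 to 623 against 923 to 1293. Of the colonocyte markers 2 were called lower and 1 higher in that comparison. The part of the cells of all these markers in the region differences was not tested.

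Espn, the espin gene, stood apart by its spread between replicates. Replicate 2 was above replicate 1 in 8 of 8 groups, by a factor of 1.21 to 12.5. In WENR-plus it was at 2.25 and 9.82 CPM in proximal Scramble-sgRNA, 1.80 and 17.3 in proximal Cdx2-sgRNA, 9.16 and 28.6 in distal Scramble-sgRNA and 6.19 and 77.4 in distal Cdx2-sgRNA organoids. In WENR-minus the values were 14.996 and 32.5, 1.71 and 5.92, 124 and 151, and 127 and 256, in the same order of groups. Thus Espn was highest in the distal WENR-minus libraries.

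Without a term for the replicate number, Espn was called in only 1 of the 12 comparisons of groups (proximal against distal, Cdx2-sgRNA WENR-minus, -5.61 ± 1.38, adjusted p = 0.00611). The replicate number as a block rests on the inferred pairing. Same-numbered libraries deviated together between both media of a culture (r = 0.281 to 0.589), and r was over 0.1 in 9 of all 28 pairs of groups. With it Espn was called higher in WENR-minus than in WENR-plus in proximal Scramble-sgRNA (2.21, adjusted p = 0.0321), distal Scramble-sgRNA (3.26, adjusted p = 0.00310) and distal Cdx2-sgRNA organoids (2.77, adjusted p = 0.00572). Under the same block it was called lower with Cdx2-sgRNA in proximal WENR-minus organoids (-2.81, adjusted p = 0.0140, against -2.60 and 0.137 without the block). The block also gave a call for the region difference of the guide effect in WENR-minus (-3.07, adjusted p = 0.0445) and for proximal against distal organoids with Scramble-sgRNA in WENR-minus (-2.79, adjusted p = 0.0234) and with Cdx2-sgRNA in WENR-plus (-2.01, adjusted p = 0.0415). In proximal Cdx2-sgRNA organoids the medium difference was -1.29 without and -1.08 with the block, and it was not called in either.

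The replicate term of that fit was 1.76 ± 0.35 for Espn (log2, replicate 2 against replicate 1, adjusted p = 0.0852) and was not called, where 0.0523% of all genes were called higher and 0.0589% lower in replicate 2. Among the other 9 genes it ran from -0.62 for Cdhr2 to 0.21 for Myo7b, and none was called.

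The deposited values are estimates per transcript, which allows the annotated forms to be compared. Vil1, Myo1a, Myo7b, Cdhr2 and Ush1c each had at least 92.8% of their reads in 1 transcript in every library. Eps8 did not. Eps8-201, which starts upstream of Eps8-202 (chr6:137477245-137649285, GRCm38, minus strand), took 40.8 to 49.9% of the reads of the gene in the 4 Scramble-sgRNA WENR-plus libraries and 8.60 to 16.3% in the 4 Scramble-sgRNA WENR-minus libraries. Eps8-202 (chr6:137477668-137571017), went from 37.0 to 41.0% to 68.0 to 75.9% in the same libraries, and none of these ranges overlapped.

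In normalised reads, Eps8-202 was at 72.6 to 74.8 CPM in distal Scramble-sgRNA WENR-plus and 457 to 491 in WENR-minus, whereas Eps8-201 was at 76.2 to 97.8 and 55.7 to 60.9. Eps8-208 was at 11.1 to 13.3 against 33.1 to 52.3 CPM, and Eps8-209 at 9.24 to 14.2 against 43.1 to 59.0. In these distal libraries Eps8-202 and these minor coding forms were thus higher in WENR-minus, and Eps8-201 was not. In proximal Cdx2-sgRNA organoids the share of Eps8-201 was 32.7 to 34.5% in WENR-plus and 29.8 to 36.3% in WENR-minus, and Eps8-202 was at 60.5 to 86.4 and 79.0 to 95.9 CPM. These shares are descriptions, with no test.

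The forms of Espn differed as well. Espn-202, a short coding form with its own start (chr4:152120857-152128925, minus strand), took 38.5 to 53.7% of the reads of Espn in the 4 Scramble-sgRNA WENR-minus libraries and 13.2 to 25.3% in the 4 WENR-plus ones. In proximal Cdx2-sgRNA organoids it took 22.4 to 24.6% in WENR-minus and 8.09 to 9.44% in WENR-plus. The forms overlap in most exons and 23 to 327 reads of Espn were found in those 4 libraries, so that the split there rests on few reads. Espn-201, a coding form that spans most of the gene, held 0 to 38.2% of the reads over all libraries. Espn-215, annotated as a processed transcript and not as coding, took 39.1 to 50.3% in the proximal Cdx2-sgRNA libraries, 47.7 to 56.4% in distal Cdx2-sgRNA WENR-plus and 0 to 43.9% in the Scramble-sgRNA libraries.

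**Figure D4:**
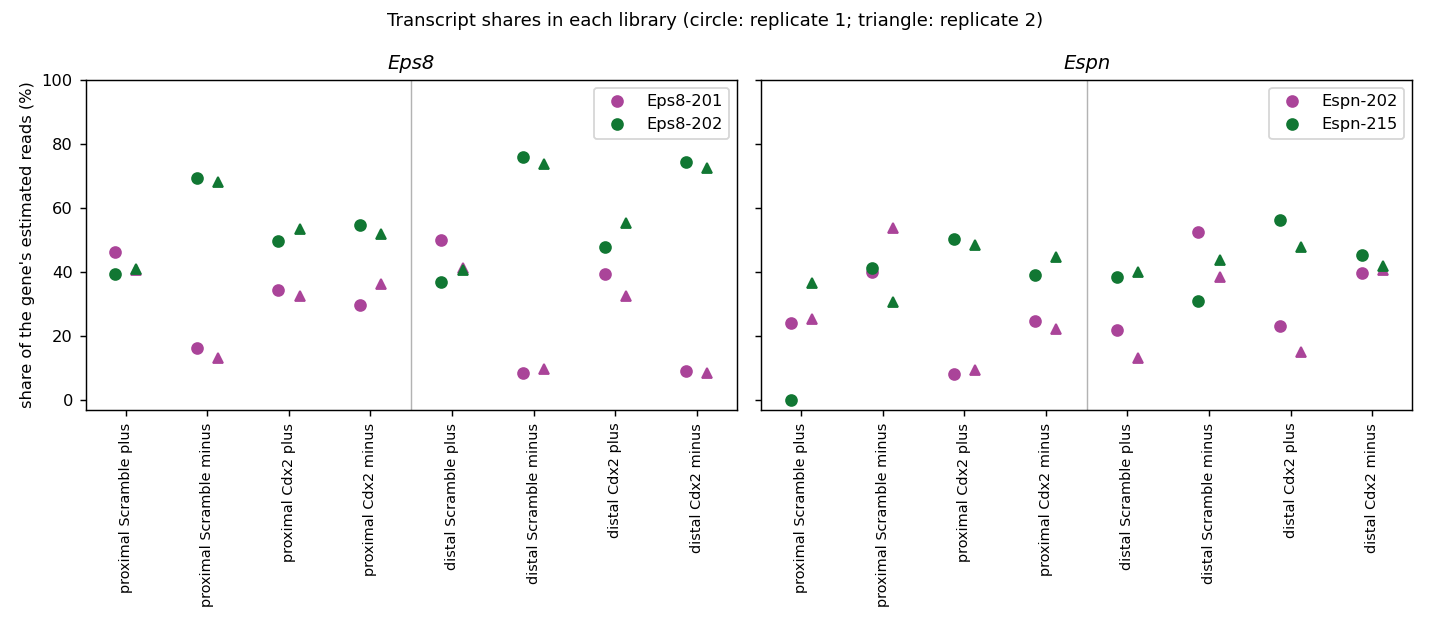
Share (%) of the estimated reads of Eps8 and of Espn in their most abundant annotated transcripts, in each library; circles are replicate 1 and triangles replicate 2. In the Scramble-sgRNA libraries Eps8-202 lies at 37.0 to 41.0% in WENR-plus and at 68.0 to 75.9% in WENR-minus.

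The promoters of the brush border genes, Ezr and Espn included, were searched for the letters that Cdx and HNF4 factors are known to prefer. RefSeq (GRCm38.p6) gave 10 promoters of 8 of the genes, from 250 bases before to 50 after the start site. Eps8 and Myo7b had no entry. The Cdx core TTTAT, read on either strand, was in 2 of the 10 promoters, that of Cdhr5 and promoter 3 of Espn, and in 40.0% of all 32817 promoters. The longer TTTATNG, which contains the core, was in 1, promoter 3 of Espn, and in 10.9% of all. The HNF4-like core CAAAG was in 5 of the 10 (Vil1, promoter 3 of Espn, Cdhr2, Ush1c and Pls1) and in 54.0% of all, and the longer CAAAGNNCA in 0 of 10 and in 6.36% of all. A match is a description and not a site. The 2 promoters with the Cdx core are shown together with those of Ush1c, the gene with the largest fold change, and Vil1, which fell less, 5′ to 3′ on the strand of the gene with both cores in capitals.
Cdhr5, chr7:141276737-141277036, minus strand: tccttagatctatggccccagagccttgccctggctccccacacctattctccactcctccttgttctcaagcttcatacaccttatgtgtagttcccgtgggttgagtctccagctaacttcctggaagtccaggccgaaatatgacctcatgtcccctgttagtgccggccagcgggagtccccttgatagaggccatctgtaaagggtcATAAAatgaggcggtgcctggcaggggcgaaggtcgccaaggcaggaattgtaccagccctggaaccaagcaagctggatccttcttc
Espn promoter 3, chr4:152128876-152129175, minus strand: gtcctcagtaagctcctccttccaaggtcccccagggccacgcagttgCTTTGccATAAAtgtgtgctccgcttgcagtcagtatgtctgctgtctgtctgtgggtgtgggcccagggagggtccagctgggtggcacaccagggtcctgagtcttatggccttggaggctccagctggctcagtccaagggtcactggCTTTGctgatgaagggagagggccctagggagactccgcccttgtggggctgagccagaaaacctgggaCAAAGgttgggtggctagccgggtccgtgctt
Ush1c, chr7:46238441-46238740, minus strand: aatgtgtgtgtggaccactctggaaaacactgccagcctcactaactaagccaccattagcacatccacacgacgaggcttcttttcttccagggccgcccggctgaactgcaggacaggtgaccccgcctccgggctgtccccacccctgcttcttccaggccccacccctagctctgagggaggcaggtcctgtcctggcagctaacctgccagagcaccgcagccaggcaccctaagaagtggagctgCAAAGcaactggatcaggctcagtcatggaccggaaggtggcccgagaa
Vil1, chr1:74409134-74409433, plus strand: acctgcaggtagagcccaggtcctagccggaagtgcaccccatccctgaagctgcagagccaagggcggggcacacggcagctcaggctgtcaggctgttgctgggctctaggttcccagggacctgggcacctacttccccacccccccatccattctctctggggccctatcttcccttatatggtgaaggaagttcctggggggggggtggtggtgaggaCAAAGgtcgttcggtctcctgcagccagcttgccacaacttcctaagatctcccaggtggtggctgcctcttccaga
In Cdhr5 the reverse complement of the core begins at position -38 from the start site. In promoter 3 of Espn, whose start falls at that of Espn-202, it begins at position -195. The window of Ush1c held no TTTAT.

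Another 25 genes of the microvillus and the apical pole were followed as 1 list, and 24 of these were tested (not Pdzk1). On withdrawal of the factors, 9 rose and 1 fell in proximal and 12 rose and 3 fell in distal Scramble-sgRNA organoids. The shares of all genes called higher and lower were 8.73% and 8.24% in the proximal and 12.2% and 14.2% in the distal cultures. Anks4b, the harmonin partner in the tip complex, rose by 1.66 ± 0.28 in proximal and by 2.60 ± 0.29 in distal organoids. Slc9a3r1, the ezrin-binding scaffold EBP50, rose by 2.15 ± 0.15 and 2.81 ± 0.15, and Stk10, a kinase of ezrin, by 2.71 ± 0.55 and 3.70 ± 0.57. Lcp1, the leukocyte plastin, fell by 2.12 ± 0.66 and 2.10 ± 0.66.

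With Cdx2-sgRNA 7 of the 24 fell and 5 rose in proximal WENR-minus organoids, with a median of -0.45, where 12.1% of all genes were called lower and 9.04% higher. Those that fell were Anks4b (-1.36 ± 0.28), Calml4 (-2.42 ± 0.35), a calmodulin-like light chain of Myo7b, Eps8l3 (-2.32 ± 0.31), Slc9a3r1 (-2.07 ± 0.15), Myo1d (-1.29 ± 0.13), Myo5b (-1.50 ± 0.18), a motor of apical vesicles, and Stx3 (-1.10 ± 0.19), an apical fusion protein. Those that rose were Msn (moesin, 7.65 ± 0.85) and Rdx (radixin, 4.21 ± 1.17), which are relatives of ezrin, the bundlers Fscn1 (fascin, 5.46 ± 1.38) and Lcp1 (4.78 ± 0.68), and the villin-like gene Vill (5.54 ± 0.41). Thus no brush border gene was called higher, whereas relatives of ezrin, plastin 1 and villin were. In proximal WENR-plus organoids 3 of the 24 fell and 3 rose, where 8.94% of all genes were called lower and 6.93% higher. In distal WENR-minus organoids Msn, Lcp1 and Vill rose, where 2.24% of all genes were called higher.

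The profile of the brush border genes over the 16 libraries was compared with all 9898 other genes tested that had a mean of at least 5 CPM. The measure was the Pearson correlation of log2 CPM with the mean of the 10 standardised profiles, which is a description over libraries that fall into 8 groups. The most alike was Plcb3, a phospholipase C (r = 0.990), followed by Slc25a44 (0.988), 0610005C13Rik (0.984), Ipmk (0.984), Inpp5j (0.984), Specc1l (0.983), Tmem8 (0.982), Fgd4 (0.982), Pank3 (0.981) and Relb (0.981). Of the other microvillus genes, 21 had a value, from 0.977 for Eps8l3 (rank 19) and 0.960 for Slc9a3r1 (rank 86) down to -0.758 for Rdx. Lcp1 (-0.620), Msn (-0.416), Vill (-0.415) and Pls3 (-0.244) were also below 0.

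Hnf4a came 44th (r = 0.967). It was at 254 and 249.7 CPM in proximal Scramble-sgRNA WENR-plus and 916 and 763 in WENR-minus, and at 65.8 and 31.4 against 155 and 129 with Cdx2-sgRNA. In distal organoids it was at 447 and 299.6 against 1360 and 1335 with Scramble-sgRNA, and at 394 and 348 against 1700 and 1750 with Cdx2-sgRNA. Thus Hnf4a rose on withdrawal also in proximal Cdx2-sgRNA organoids (1.55 ± 0.29, adjusted p = 0.00786), where 8 of the 10 brush border genes were not called. Cdx2 itself had r = 0.656, and Cdx1, its close relative, 0.729. Cdx1 was at 102 and 114 CPM with Scramble-sgRNA and 0.520 and 0.212 with Cdx2-sgRNA in proximal WENR-minus organoids (log2 fold change -8.26, adjusted p = 4.71e-08), and was not called between guides in distal ones (adjusted p = 0.107).

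Within the set, the correlation of each gene with the mean of the other 9 ran from 0.685 for Ezr, 0.781 for Myo7b and 0.786 for Espn to 0.969 for Cdhr2. Over the 45 pairs it ran from 0.292 to 0.990 with a median of 0.805.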

How the data were processed

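RNA was prepared with the SMARTer Stranded Total RNA kit, and the labels' molecule field names genomic DNA although the protocol is for RNA. The authors quantified transcripts with Salmon 1.1.0, per the labels' processing notes, on mm10, and deposited estimated counts and TPM values with effective lengths. Of 140748 transcripts, 139864 were matched to gene symbols in GENCODE (GRCm38). The other 884 held 0.257 to 0.509% of the reads. Estimated counts were summed per gene, rounded and fitted with edgeR 4.0.16 (R 4.3.3; TMM scaling, filterByExpr, quasi-likelihood test) with 1 coefficient per group over all 16 libraries (8 residual degrees of freedom). Adjusted p values are Benjamini-Hochberg over 15289 genes, and 16 comparisons were made. Each SE was derived from the fold change and its F statistic. CPM are TMM-scaled. On simulated counts for proximal Scramble-sgRNA, WENR-minus against WENR-plus (14581 genes), 44.8% of genes changed by a log2 of 2 and 80.4% of those changed by 3 were recovered.

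The members, lists and rules were chosen with earlier results of these data known. Named genes were the 10 members, the other microvillus genes called in at least 1 comparison, the 10 genes most alike in profile, and Cdx2, Cdx1 and Hnf4a. The methods name 2 mice and the labels number biological replicates. That a number marks the same mouse across groups is inferred from these and stated in neither. Over 28 pairs of groups the correlation of their deviations was -0.0594 to 0.589 (median 0.0729), and both media of a culture gave 0.281 to 0.589. Replicates of the edited groups are also clones. Alternatives were DESeq2 1.42.0, its size factors (RLE), other filters, length-scaled counts, a replicate block, fits of only the libraries compared, no fold change threshold and leaving out each library. The replicate term (7 residual degrees of freedom) was added after the data were seen. The processing notes also name DESeq2 1.32, used by the authors.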

Additional observations from a re-analysis of the deposited data

Results flagged for a closer look

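The guide effect differed between regions, by the test of that difference in edgeR, for 8 brush border genes in WENR-minus. The log2 differences (proximal minus distal) were -7.93 for Cdhr5, -7.79 for Ush1c, -7.38 for Myo7b, -4.77 for Myo1a and -4.755 for Cdhr2. They were -2.27 for Vil1, -2.09 for Eps8 and -1.37 for Pls1. In WENR-plus they were -6.20 for Ush1c, -5.33 for Myo7b, -5.06 for Cdhr5 and -3.79 for Myo1a.

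In proximal organoids the effect of the medium differed between guides (Cdx2-sgRNA minus Scramble-sgRNA) by -2.42 for Cdhr5, -1.60 for Myo7b and -1.29 for Vil1. Groups of 2 libraries do not allow a test for a single library far from the others.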

How the results depend on the processing

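The 67 called values of the 10 genes kept their direction in 825 of 825 alternative values, and 29 of these were no longer called, of which 19 lay in the proximal difference between guides in the medium effect. That count (3) was 7 with no filter on low counts, 5 with a replicate block for each culture, 1 with only the libraries compared and 0 to 4 leaving out 1 library. The count for the medium in proximal Cdx2-sgRNA organoids (2) was 4 with no filter, 0 with only the libraries compared and 1 to 4 leaving out 1 library. For counts of 0, no filter gave 1 in distal WENR-plus between guides and 1 in each medium between regions with Scramble-sgRNA. With no fold change threshold, 1 was called in distal WENR-minus between guides and 1 in WENR-minus between regions with Scramble-sgRNA, where the replicate block gave 1, only the libraries compared 1 and leaving out 1 library 0 to 1. The calls that a block added were of Espn and Cdhr2. Beside those given above, the block for each culture called both in the proximal difference between guides in the medium effect (Espn -3.28, adjusted p = 0.0401, and Cdhr2 -1.29, adjusted p = 0.00427). The blocks changed no other call.

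Uncalled values changed sign. Leaving out 1 library, Espn ranged from -2.50 to 1.12 for the medium in proximal Cdx2-sgRNA organoids, and between guides from -1.72 to 2.13 in proximal WENR-plus, -0.12 to 0.90 in distal WENR-minus and -1.58 to 2.22 in distal WENR-plus. Ezr between guides in proximal WENR-plus was 0.0091 with RLE size factors and with DESeq2, 0.0264 with no filter, 0.0218 with only the libraries compared and -0.152 to 0.0579 leaving out 1 library. In distal WENR-plus Ezr was 0.0054 with RLE size factors, 0.0654 with length-scaled counts, 0.0012 with only the libraries compared, 0.0055 with DESeq2 and -0.164 to 0.172 leaving out 1 library. The cause of these changes was not tested. With 2 libraries per group, depth of 10 to 12 reads limits Ush1c in proximal Cdx2-sgRNA organoids.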
